A study of Mus musculus with 4 samples.

Results

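The genes described here are the 65 of 50600 genes in the count table whose products shorten the poly(A) tail of mRNA, remove its cap, degrade it from either end, or bring these enzymes to a transcript. They were chosen by symbol, with earlier results of these data known. The rule took the numbered Cnot, Exosc, Lsm1 to Lsm8, Smg, Upf, Dcp, Edc, Xrn, Pan and Tnrc6 genes. It also took Dis3, Dis3l, Dis3l2, Ddx6, Pnrc1, Pnrc2, the 3 Zfp36 genes, Tob1, Tob2 and Btg1 to Btg3. RNA came from C57BL/6 mice, from their primary colonic epithelial cells, which were wild type (WT, 2 libraries) or knockout (KO, 2 libraries) for Mettl14, which encodes a subunit of the nuclear enzyme that places N6-methyladenosine (m6A) on mRNA. The sources used here do not give the allele, the promoter of any Cre, the age or any treatment of the mice, or whether a library pooled animals; a code that all sample titles share, whose meaning is not stated, was not used. Both groups held 1 male and 1 female library, read from Xist and 4 Y-linked genes. The libraries of a group therefore came from different animals, which the labels do not say themselves, and the spread behind each p-value holds a sex difference as well.

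mRNA decay usually begins when the PAN2-PAN3 and CCR4-NOT complexes trim the poly(A) tail. The shortened mRNA is then decapped by DCP2 with its activators and the LSM1-7 ring and digested from its 5′ end by XRN1, or it is digested from its 3′ end by the RNA exosome. Adaptors choose the targets: BTG and TOB proteins and the AU-rich element binding ZFP36 proteins contact CCR4-NOT, TNRC6 proteins link it to microRNA complexes, and the UPF and SMG proteins direct nonsense-mediated decay (NMD). Transcripts that carry m6A can be passed to the same enzymes by reader proteins.

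Levels are given in CPM (counts divided by the library total, at a fixed scale), adjusted between libraries by the trimmed mean of M-values (TMM), and a called gene is one with a Benjamini-Hochberg adjusted p below 0.05 over all 14861 genes tested with edgeR's quasi-likelihood test. Library totals ran from 22136440 to 24991060 counts. Mettl14 stood at 11.7 and 8.67 CPM in the WT libraries and at 3.99 and 3.94 CPM in the KO libraries (log2 fold change −1.36, adjusted p = 0.0504; 0.0328 with sex as a covariate). Counts of the decay genes made up 0.298% to 0.379% of each library. Marker lists moved with genotype in part. The 6 cell cycle genes summed to 107 and 125 CPM in WT and 274 and 255 CPM in KO. Of these, 4 were called higher (1.72% of all genes), or 5 once sex entered the fit (4.68% of all genes). The 10 leukocyte genes summed to 119 and 179.9 CPM in WT and 273 and 204 CPM in KO, with 3 called higher, or 5 once sex entered the fit. The 10 epithelial genes summed to 8565 and 9439 CPM in WT and 7120.3 and 6845 CPM in KO. Of these, 0 were called by edgeR, or 2 lower once sex entered the fit (4.8% of all genes). Fibroblast markers summed to 75.4 to 103 CPM in 3 libraries and to 591 CPM in KO replicate 2, and red cell markers to 1334 to 2696 CPM in 3 libraries and to 6560.2 CPM in KO replicate 2. The 3 endothelial markers summed to 4.91 to 10.3 CPM. No listed marker was at 0 in any library, and the part of these cells in the results was not tested. In bulk RNA, fewer cells of a type and less RNA per cell cannot be told apart.

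All 65 genes passed the filter on low counts, and most differed little between genotypes. Btg2 fell and Exosc6 rose, which makes 2 of 65 called (3.08%), against 3.61% of all genes tested. By direction, 1.72% of all genes were called higher and 1.9% lower. The smallest edgeR adjusted p of any gene tested was 0.0434, so every called gene lay between that value and 0.05. In a fit that also held sex, 6 of the 65 were called (9.23%), against 9.48% of all genes. These were 3 higher, Exosc6, Dcp2 and Tnrc6c (4.68% of all genes), and 3 lower, Btg2, Tob1 and Cnot10 (4.8% of all genes). The fit with sex leaves fewer residual degrees of freedom, so its p-values lean more on the spread shared across genes. At an unadjusted p below 0.05, edgeR counted 18 of the 65 (27.7%), against 30.5% of all genes, with 7 higher (14.8% of all genes) and 11 lower (15.7% of all genes). At an adjusted p below 0.1 it counted 10 (15.4%), against 18.0%. The median log2 fold change of the 65 was −0.019, beside −0.013 for all genes tested, and the median size without sign was 0.26, beside 0.37. In 53 of the 65 the WT and KO values did not overlap (81.5%), against 63.3% of all genes. Of these, KO was above WT in 25 (38.5%, against 31.1% of all genes) and below in 28 (43.1%, against 32.2%). The shares called were close to the background. Other settings called 8 of the 65 with DESeq2 (14.1% of all genes), 7 without a filter (6.71%), 5 with scaling by library totals (5.32%), 4 with WT replicate 1 left out (7.95%), 7 with WT replicate 2 left out (14.6%) and 0 with either KO library left out (0.0%).

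**Figure D1:**
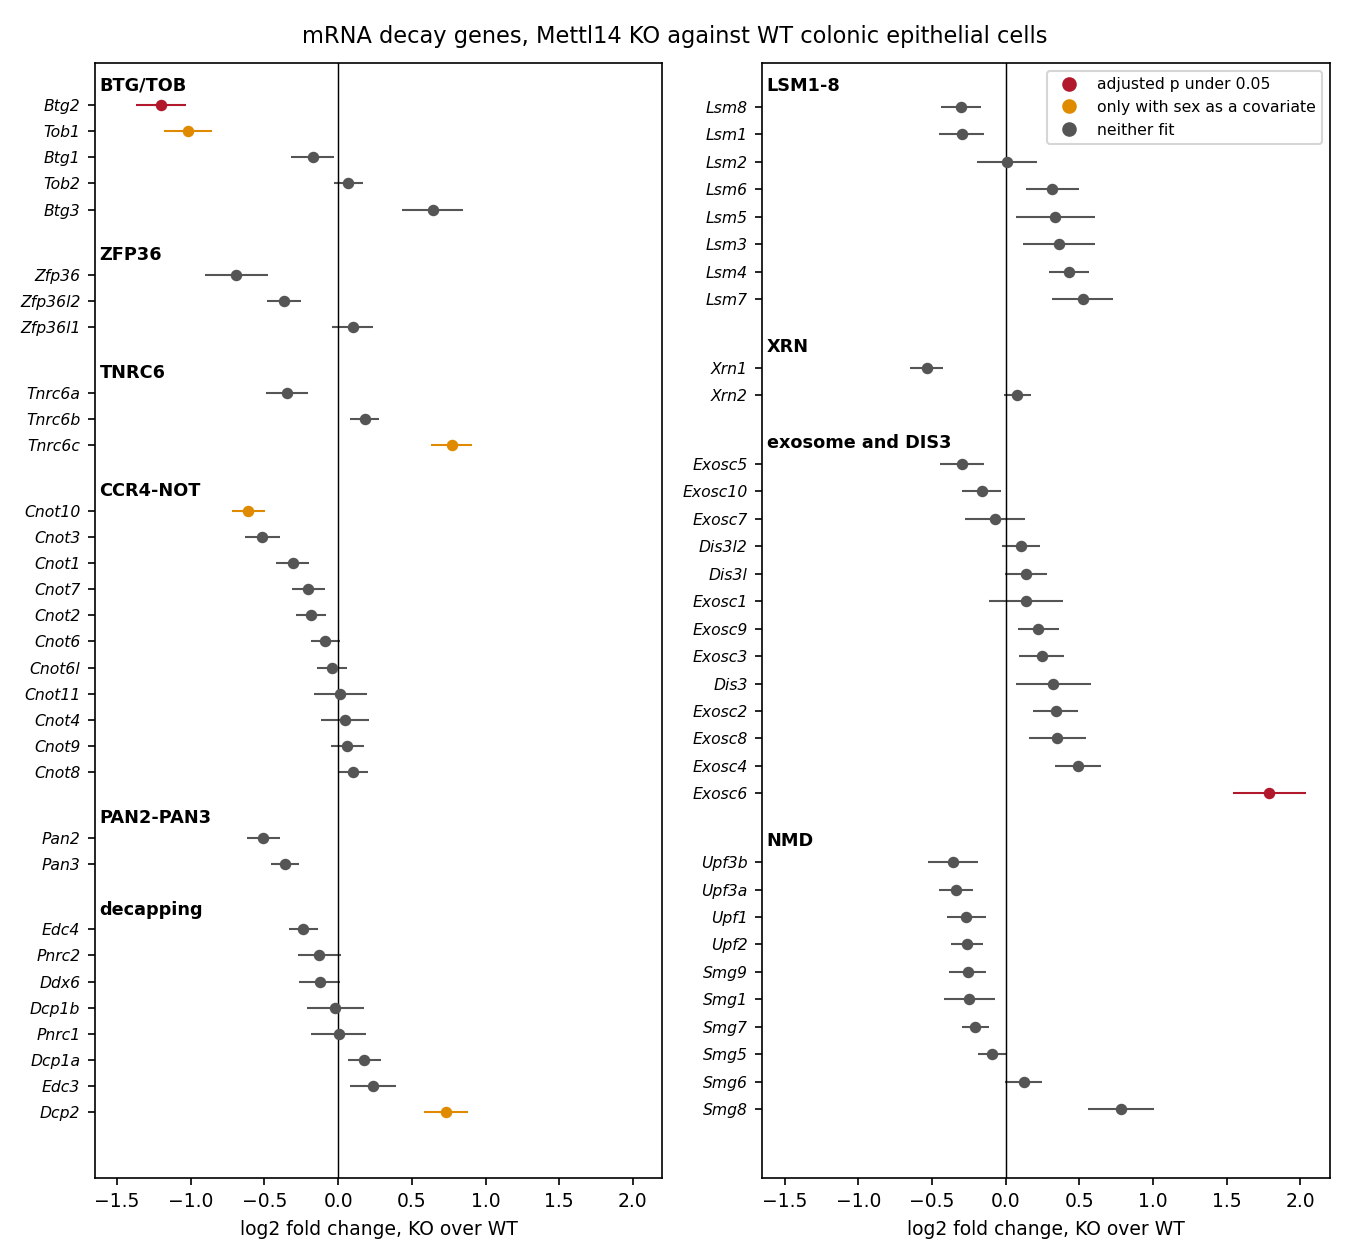
Log2 fold change of each of the 65 decay genes in KO over WT, grouped by role; points are edgeR estimates and bars are ± 1 standard error. Btg2 (−1.20) and Exosc6 (1.79) are red, Tob1, Tnrc6c, Cnot10 and Dcp2, which of these 2 fits passed only the one with sex as a covariate, are orange, and the other points are grey.

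The BTG and TOB adaptors held the decay gene that fell. BTG2 binds the CNOT7 and CNOT8 deadenylases and is known as an antiproliferative, stress-induced protein. Btg2 (chromosome 1, 134075170 to 134079120, minus strand, GRCm38) was at 456 and 577 CPM in the WT libraries and at 227 and 222 CPM in the KO libraries, from 5130 to 13700 counts a library. Both KO values lay below both WT values, and the KO libraries differed by little from each other. Means were 517 CPM (SD 84.9, n = 2) for WT and 225 CPM (SD 4.08, n = 2) for KO, 2.30-fold lower, with a log2 fold change of −1.20 ± 0.17 (SE; edgeR adjusted p = 0.0453). The difference was −1.04 on the log2 scale between the male libraries and −1.34 between the female libraries. Without KO replicate 1 or KO replicate 2, edgeR called 0 of all genes tested, and the log2 fold change of Btg2 was −1.23 or −1.17; at an unadjusted p below 0.05 edgeR then counted 2257 or 1987 genes.

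Tob1, whose product joins CCR4-NOT to poly(A)-binding protein, followed the same order of libraries. It was at 159.9 and 206 CPM in WT and at 93.0 and 87.2 CPM in KO, with no overlap, a 2.03-fold difference of means (log2 fold change −1.02 ± 0.16, SE). Its edgeR adjusted p was 0.0503, just outside the threshold, and 0.0273 with sex as a covariate. Tob1 was also called with scaling by library totals, without a filter and by DESeq2. Its log2 fold change was −1.20 without WT replicate 1 and −0.80 without WT replicate 2. The other 3 members were not called. Btg1, the closest relative of Btg2, was at 328 and 363 CPM in WT and 286 and 327 CPM in KO (log2 fold change −0.17, adjusted p = 0.462). Tob2 lay between 27.4 and 29.8 CPM in every library. Btg3 was at 5.49 and 7.45 CPM in WT and 10.2 and 10.02 CPM in KO (log2 fold change 0.64, adjusted p = 0.126), and passed the threshold without WT replicate 2 (0.91). Of the exons of Btg3, 17.3% overlap exons of other genes on the opposite strand. Exons of Cxadr, on that strand, and of Gm49590 lie within its span, and the share of each was not computed. Cxadr fell (log2 fold change −0.90, edgeR adjusted p = 0.0461). Of the 50-base stretches of Btg3, 51.8% also occur in other genes, foremost the pseudogene Gm7334 (0 to 6 counts a library), so the counts of Btg3 are uncertain. For Btg2 and Tob1 no exon overlaps another gene and no stretch of 50 bases is shared with one.

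The 250 bases before the RefSeq start of Btg2 and Tob1 are shown because these genes had the lowest log2 fold changes of the 65. They were searched on both strands for the TATA box (TATAAA), the CCAAT box, the cAMP response element (TGACGTCA), the AP-1 site (TGACTCA), the GC box (GGGCGG), the E-box (CACGTG) and 1 form of the serum response element, and capitals mark the matches.
Btg2, chr1:134079156-134079405, minus strand, GRCm38.p6: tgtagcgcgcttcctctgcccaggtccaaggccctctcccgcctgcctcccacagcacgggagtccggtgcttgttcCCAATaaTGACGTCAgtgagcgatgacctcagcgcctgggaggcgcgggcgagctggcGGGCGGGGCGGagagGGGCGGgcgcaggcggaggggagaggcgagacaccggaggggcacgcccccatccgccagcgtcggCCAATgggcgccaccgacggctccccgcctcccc
Tob1, chr11:94211204-94211453, plus strand, GRCm38.p6: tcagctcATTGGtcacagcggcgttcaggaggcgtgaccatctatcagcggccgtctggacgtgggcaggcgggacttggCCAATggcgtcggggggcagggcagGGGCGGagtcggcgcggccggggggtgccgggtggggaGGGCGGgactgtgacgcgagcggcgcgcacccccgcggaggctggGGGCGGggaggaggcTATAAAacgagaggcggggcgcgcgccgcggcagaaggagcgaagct
The Btg2 window holds TGACGTCA, whose first base lies 166 bases before the start, with 2 CCAAT and 3 GGGCGG matches. The Tob1 window holds TATAAA 47 bases before the start, with 2 CCAAT and 3 GGGCGG matches. TGACGTCA was found in 1.55% of all 32851 windows in the RefSeq table and, among the 55 decay genes with a window, in Btg2 and Lsm2. The TATA box letters were found in 12.4% of all windows, those of the CCAAT box in 33.8% and those of the GC box in 32.7%. By gene, the GC box was in 38 of the 55 (69.1%), against 35.4% of all genes. The CCAAT box was in 22 (40.0%, against 37.5%) and the TATA box in 3 (5.45%, against 14.3%). In neither window do matches of different motifs overlap, and a match describes letters, not binding.

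The 8 immediate early genes, a list that held the stress- and growth-induced transcripts, are given beside Btg2, Tob1 and Zfp36 because their levels moved in the same libraries. Since the list is shown for its outcome, the shares of all genes given below are no test of it. Their sum was 4399 and 6429 CPM in WT and 3441 and 2617 CPM in KO. In 7 of the 8 both KO values lay below both WT values, as in 32.2% of all genes, and 1 (1.9% of all genes), Dusp1, which encodes a MAP kinase phosphatase, was called lower (491 and 637 CPM in WT, 243 and 189.8 CPM in KO, log2 fold change −1.38, adjusted p = 0.0480). Once sex entered the fit, 4 of the 8 were called lower, as were 4.8% of all genes. The part of these genes' shift in the values of Btg2, Tob1 and Zfp36 was not tested.

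Zfp36, which encodes tristetraprolin, the protein that brings CCR4-NOT to AU-rich mRNAs, was at 386 and 524 CPM in WT and 311 and 252 CPM in KO. Its values did not overlap, but the libraries of each group lay far apart, and the log2 fold change of −0.69 ± 0.22 (SE) had an adjusted p of 0.119. Zfp36l2 was at 203 and 202 CPM in WT and 154 and 161 CPM in KO (log2 fold change −0.37, adjusted p = 0.118). Zfp36l1 was at 51.3 and 62.0 CPM in WT and 64.3 and 57.0 CPM in KO, with overlap; 56.9% of its 50-base stretches also occur in other genes, foremost Gm26669, which had 0 to 16 counts a library. No ZFP36 gene was called by edgeR, and DESeq2 called Zfp36 lower (−0.68).

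Among the TNRC6 scaffold genes of microRNA silencing, Tnrc6c was at 28.3 and 32.6 CPM in WT and 47.5 and 56.5 CPM in KO. Both KO values were the higher ones, with a log2 fold change of 0.77 ± 0.14 (SE), an adjusted p of 0.0546, and 0.0433 with sex as a covariate; it also passed the threshold without WT replicate 2 (0.91). Tnrc6a had the opposite sign, at 108 and 95.3 CPM in WT and 72.6 and 87.3 CPM in KO (log2 fold change −0.35, adjusted p = 0.186). Tnrc6b was at 36.7 and 39.5 CPM in WT and 42.5 and 43.8 CPM in KO (log2 fold change 0.18, adjusted p = 0.278).

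**Figure D2:**
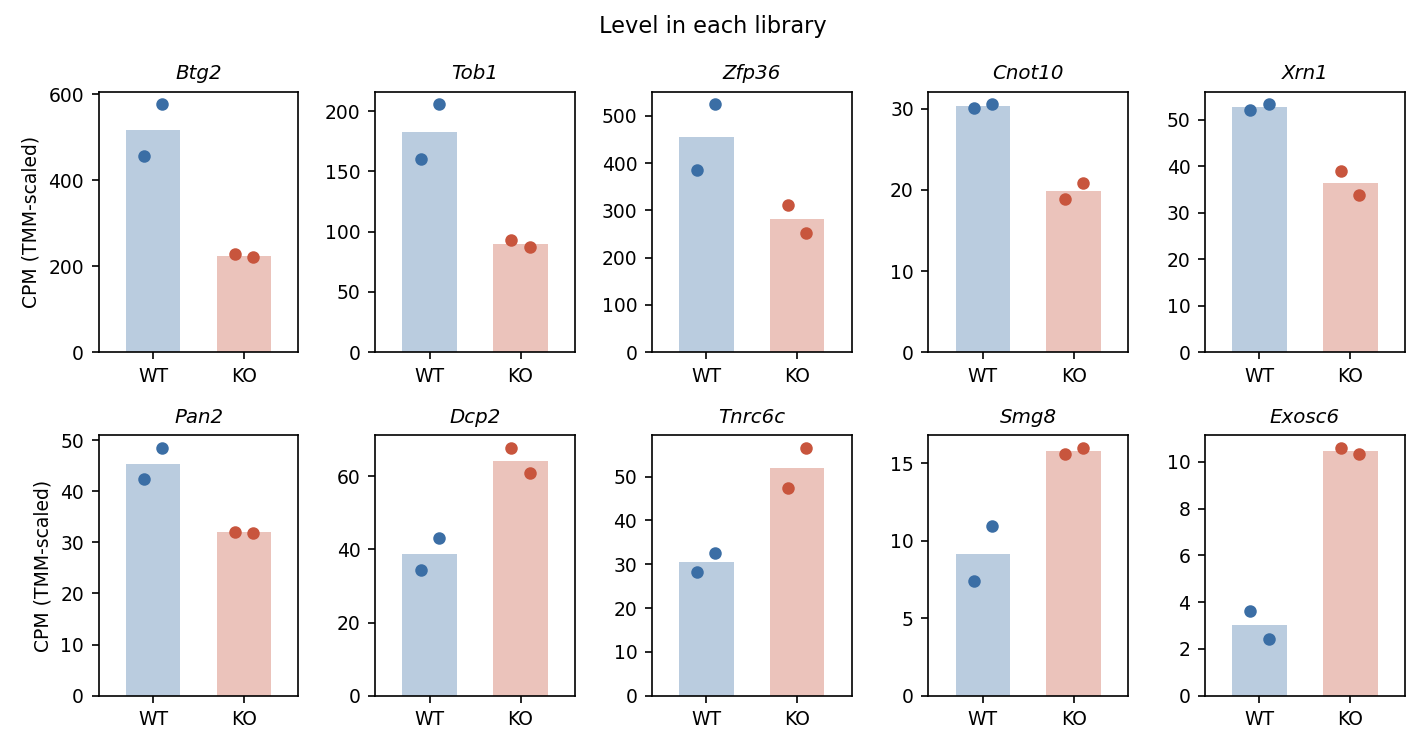
TMM-scaled CPM of 10 decay genes in each library, on linear axes from 0; bars are means and points are the 2 libraries of each group. The 10 genes were picked with their values known. WT and KO points do not overlap in any panel, which follows in part from that choice, and did not overlap in 63.3% of all genes tested. The KO points of Btg2 lie at 227 and 222 CPM against WT points at 456 and 577 CPM.

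CCR4-NOT, the main deadenylase complex, had 0 members called by edgeR on genotype alone with the filter on low counts. Cnot10 was called without that filter and by DESeq2 (−0.60). The complex had 3 members at an unadjusted edgeR p below 0.05 (27.3%, against 30.5% of all genes). Of its 11 genes 4 had a positive and 7 a negative log2 fold change, from −0.61 to 0.10, with a median of −0.086. This median became 0.077 when libraries were scaled by their totals, which moved the median of all genes from −0.013 to 0.15. Without KO replicate 1 or KO replicate 2 the median of the complex was −0.14. Cnot10, whose product forms a module of the complex with CNOT11, was at 30.1 and 30.6 CPM in WT and 18.8 and 20.8 CPM in KO (log2 fold change −0.61 ± 0.11, SE, adjusted p = 0.0556, or 0.0492 with sex as a covariate). Cnot3, a subunit of the NOT module, was at 30.2 and 32.9 CPM in WT and 23.3 and 20.8 CPM in KO (log2 fold change −0.51, adjusted p = 0.0731), and 32.1% of its 50-base stretches also occur in other genes, foremost the pseudogene Gm9207. The scaffold gene Cnot1 was at 159.7 and 166 CPM in WT and 132 and 131 CPM in KO (log2 fold change −0.31, adjusted p = 0.144). The 4 catalytic subunit genes Cnot6, Cnot6l, Cnot7 and Cnot8 had log2 fold changes from −0.20 to 0.10. None of these enzyme genes was called.

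Both genes of the PAN2-PAN3 deadenylase were at lower values in KO without reaching the threshold. Pan2, the catalytic subunit, was at 42.3 and 48.5 CPM in WT and 32.1 and 31.8 CPM in KO (log2 fold change −0.51, adjusted p = 0.0692), and passed it without WT replicate 1 (−0.61). Pan3, the RNA-binding partner, was at 48.4 and 44.9 CPM in WT and 35.8 and 36.9 CPM in KO (log2 fold change −0.36, adjusted p = 0.0924). Both had an unadjusted edgeR p below 0.05, as did 30.5% of all genes, and DESeq2 called neither.

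Of the 8 decapping genes, Dcp2, the decapping enzyme itself, stood apart. It was at 34.3 and 43.1 CPM in WT and 67.8 and 60.8 CPM in KO, with a log2 fold change of 0.73 ± 0.15 (SE), an adjusted p of 0.0624, and 0.0313 with sex as a covariate. It was also called with scaling by library totals, without a filter and by DESeq2. Without WT replicate 2 its log2 fold change was 0.94. The remaining 7 lay between −0.24 (Edc4, the scaffold of the decapping complex) and 0.24 (Edc3), and none was called. Edc3 overlaps Clk3 on the opposite strand over 22.1% of its exons, and Clk3 was at 35.8 to 54.3 CPM (log2 fold change −0.50). Ddx6, the helicase that links CCR4-NOT to decapping, was at 138 and 165 CPM in WT and 135 and 143 CPM in KO (log2 fold change −0.12). Its sign turned with scaling by library totals (0.044, beside a median of 0.15 for all genes) and without WT replicate 2 (0.043). The LSM genes encode the ring that binds shortened tails (LSM1-7) and the nuclear ring on U6 RNA (LSM2-8). Of the 8, 6 had a positive and 2 a negative log2 fold change, with a median of 0.33 (0.14 without WT replicate 2) beside −0.013 for all genes, and 0 were called by edgeR or DESeq2; 1 of the 8, Lsm4, had an unadjusted p below 0.05. Lsm4 was at 18.7 and 17.9 CPM in WT and 26.8 and 22.5 CPM in KO (log2 fold change 0.43, adjusted p = 0.122). The genes with a negative sign were Lsm1 and Lsm8, both at −0.30, the subunits that set the 2 rings apart. Of the 50-base stretches of Lsm7 (0.52) 62.8% also occur in other genes, foremost the pseudogene Gm10146, which had 0 or 1 counts a library. For Lsm5 (0.34) the share was 44.0%, foremost Gm7846 with 2 to 12 counts a library, so the counts of Lsm7 and Lsm5 are uncertain.

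The 5′ exonuclease genes had opposite signs. Xrn1, the cytoplasmic enzyme, was at 52.2 and 53.4 CPM in WT and 39.1 and 33.9 CPM in KO (log2 fold change −0.53 ± 0.11, SE, adjusted p = 0.0636). Xrn2, the nuclear enzyme that acts in transcription termination, was at 53.1 and 51.0 CPM in WT and 54.9 and 55.1 CPM in KO (log2 fold change 0.08, adjusted p = 0.589). Neither was called by edgeR with the filter on low counts. Xrn1 was called lower without that filter and by DESeq2 (−0.52).

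Exosc6, a core subunit of the RNA exosome, was the called gene with a higher value in KO, and its counts cannot be separated from those of a neighbour. It was at 3.61 and 2.44 CPM in WT and 10.6 and 10.3 CPM in KO, from 75, 58, 239 and 265 counts. The difference was 3.46-fold (log2 fold change 1.79 ± 0.25, SE, adjusted p = 0.0449), at 1.52 between the male and 2.12 between the female libraries. The single exon of Exosc6 (chromosome 8, 111056339 to 111057664, plus strand, GRCm38) lies whole inside exon 21 of Aars (111055019 to 111057664), on the same strand. Aars encodes alanyl-tRNA synthetase. Every 50-base stretch of Exosc6 is also in Aars, so a read there fits both genes. Aars was at 60.1 and 60.9 CPM in WT and 77.8 and 77.7 CPM in KO (log2 fold change 0.36, adjusted p = 0.0862). The sum of both genes was 63.7 and 63.4 CPM in WT and 88.4 and 88.1 CPM in KO, 1.39-fold higher. The share of that sum counted to Exosc6 was 5.67% and 3.85% in WT and 11.99% and 11.7% in KO. Like Btg2, Exosc6 was not called without KO replicate 1 (1.76) or KO replicate 2 (1.83).

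Of the 13 exosome and DIS3 genes, 10 had a positive and 3 a negative log2 fold change, with a median of 0.22. With scaling by library totals this median was 0.39, and that of all genes was 0.15. In 9 of the 13 both KO values lay above both WT values, as in 31.1% of all genes. Apart from Exosc6 no member was called. Exosc4, another core subunit, was at 9.11 and 8.33 CPM in WT and 13.0 and 11.5 CPM in KO (log2 fold change 0.49, adjusted p = 0.118). It overlaps Oplah on the opposite strand over 19.8% of its exons, and Oplah fell (−0.96, adjusted p = 0.0434). Exosc9 (0.22) overlaps Ccna2 on the opposite strand over 10.8% of its exons, and Ccna2, the cyclin A2 gene, rose (0.97, adjusted p = 0.0443). The nuclear exonuclease gene Exosc10 was at 25.1 and 21.1 CPM in WT and 20.6 CPM in both KO libraries (log2 fold change −0.16), a value of 0.0054 when scaled by library totals. The catalytic genes Dis3, Dis3l and Dis3l2 had log2 fold changes of 0.32, 0.14 and 0.10, with adjusted p-values from 0.432 to 0.623.

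**Figure D3:**
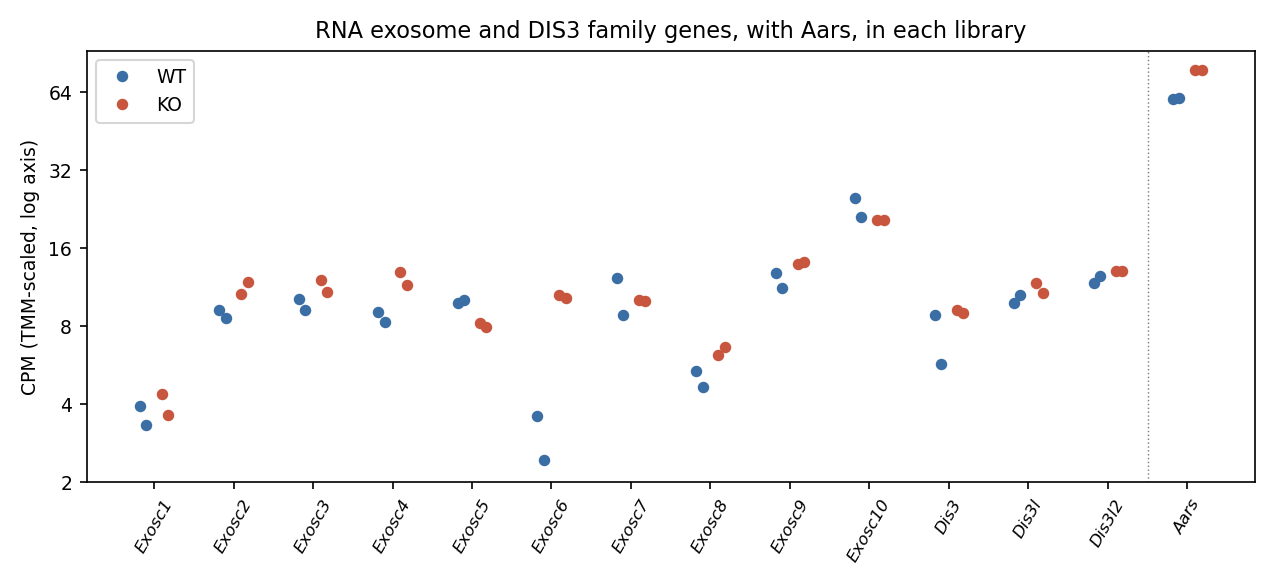
TMM-scaled CPM on a log axis for the 13 exosome and DIS3 genes and, right of the dotted line, Aars; points are libraries, WT and KO beside each other. Exosc6 is at 3.61 and 2.44 CPM in WT and 10.6 and 10.3 CPM in KO, while the means of every other gene drawn differ by a smaller ratio.

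Among the 10 NMD genes 8 had a negative log2 fold change and 2 a positive one, with a median of −0.25 (−0.13 without WT replicate 2). With scaling by library totals the median was −0.085, while that of all genes was 0.15. By edgeR or DESeq2 0 were called, and Smg8 and Upf3a had an unadjusted edgeR p below 0.05 (20.0%, against 30.5% of all genes). Smg8, a regulator of the SMG1 kinase, was at 7.37 and 10.9 CPM in WT and 15.6 and 15.98 CPM in KO (log2 fold change 0.78 ± 0.22, SE, adjusted p = 0.101), and passed the threshold without WT replicate 2 (1.13). Upf1, the central helicase, was at 60.4 and 70.6 CPM in WT and 51.0 and 57.9 CPM in KO (log2 fold change −0.27, adjusted p = 0.243). Smg1, the kinase of UPF1, was at 169.9 and 223 CPM in WT and 163 and 169 CPM in KO (log2 fold change −0.25, adjusted p = 0.378), a difference carried by WT replicate 2, the only library clear of the others. Upf2, Upf3a and Upf3b, which join UPF1 to exon junctions, had log2 fold changes of −0.26, −0.33 and −0.36.

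Shares of paralogues within a library do not depend on how libraries are scaled. Counts were divided by the merged length of all annotated exons of a gene and by the family total, so the size of a share depends on the annotation. Btg2 made up 72.4% and 74.9% of the Btg1 to Btg3 total in WT and 59.4% and 55.7% in KO, and Btg1 27.0% and 24.5% in WT and 38.8% and 42.6% in KO. Tob2 made up 5.55% and 4.57% of the TOB total in WT and 9.92% and 10.2% in KO. Tnrc6c made up 18.0% and 21.7% of the TNRC6 total in WT and 33.0% and 33.6% in KO, and Tnrc6a 69.3% and 64.1% in WT and 51.0% and 52.4% in KO. Xrn1 was 17.4% and 18.3% of the XRN total in WT and 13.2% and 11.6% in KO. In each of these the groups did not overlap, whereas the shares of the DCP1, UPF3, DIS3 and PNRC genes did. The shares of Zfp36, Zfp36l1, Cnot6, Cnot6l, Cnot7 and Cnot8 in their families did not overlap either. The mean share of Cnot6 was 67.0% in WT and 66.3% in KO, so groups were apart at a small difference too. With 2 libraries a group the smallest 2-sided p of an exact permutation test is 0.333, so no test of a share was made.

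**Figure D4:**
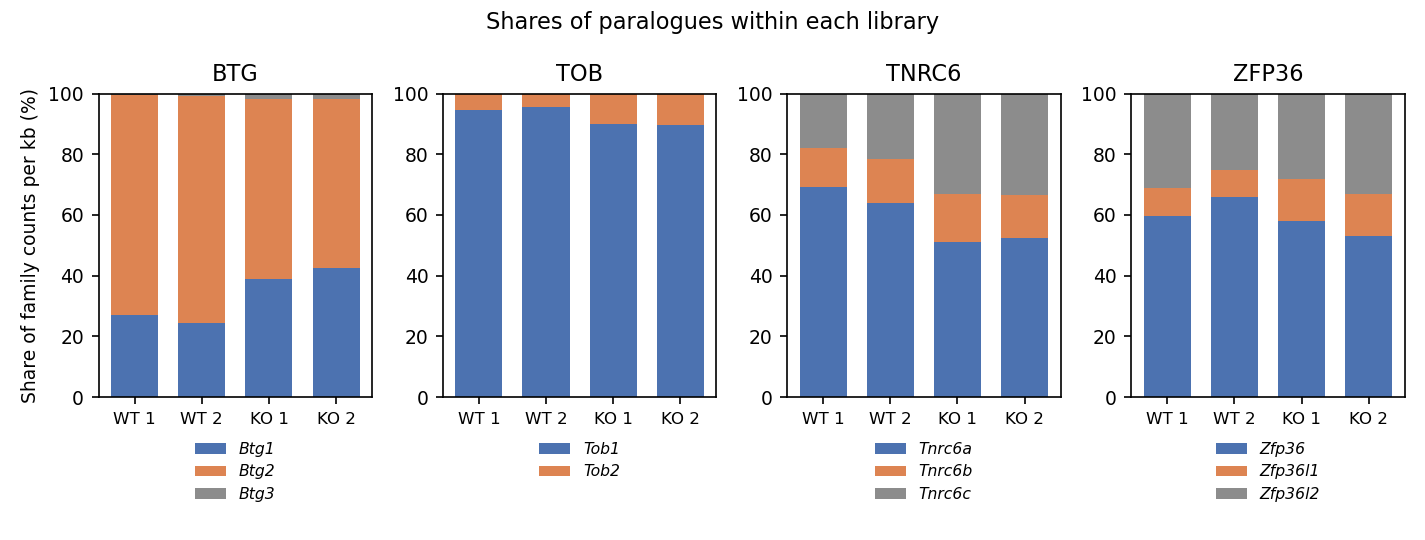
Share of each paralogue in the counts per kb of its family (%), one stacked bar per library. The Btg2 part is 72.4% and 74.9% in WT and 59.4% and 55.7% in KO, and the Tnrc6c part is larger in both KO libraries (33.0% and 33.6%) than in WT (18.0% and 21.7%).

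Per kilobase of exon, 5 of the 6 highest levels belonged to BTG, TOB and ZFP36 genes and the other one to Pnrc1, a decapping coactivator gene, while Tob2 and Btg3 were low (4.31 and 2.06 CPM per kb). The mean level over the 4 libraries was 135 CPM per kb for Btg2, 106 for Zfp36, 66.0 for Pnrc1, 61.7 for Btg1, 59.6 for Tob1 and 51.0 for Zfp36l2. The order differed between genotypes: Tob1 at 79.9 CPM per kb was above Pnrc1, Btg1 and Zfp36l2 in WT and at 39.4 was below all of them in KO, and Btg2 and Zfp36 were at 188 and 131 CPM per kb in WT and at 81.9 and 81.2 in KO. The next were Pnrc2 at 22.8 and Lsm4 at 20.7 CPM per kb, and the lowest were Cnot4, Dis3 and Exosc1 at 1.12, 1.06 and 0.94 CPM per kb. The divisor was the merged length of all annotated exons of a gene. It can exceed the transcript with the longest coding sequence, at 4053 against 1018 bases for Exosc1 and 4199 against 503 for Lsm8. The order of genes therefore depends on the annotation.

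A second list held 52 other decay genes, such as poly(A)-binding proteins, Argonautes, exosome cofactors and exon junction proteins, of which 51 were tested. Of these 1 was called higher (1.72% of all genes) and 1 lower (1.9% of all genes), and the median log2 fold change was −0.039, beside −0.013 for all genes. Pelo, whose product rescues stalled ribosomes in no-go decay, was at 4.77 and 6.48 CPM in WT and 16.9 and 16.1 CPM in KO (log2 fold change 1.55, adjusted p = 0.0437). Lsm14b, a P-body protein gene, was at 16.3 and 14.5 CPM in WT and 7.76 and 7.99 CPM in KO (log2 fold change −0.97, adjusted p = 0.0465). Zcchc7, a subunit of the nuclear TRAMP complex that feeds the exosome, was at 45.0 and 34.4 CPM in WT and 22.7 and 29.5 CPM in KO (−0.60, adjusted p = 0.133), and was called with sex as a covariate (adjusted p = 0.0419). Pelo and Lsm14b were not called without KO replicate 1 (1.51 and −0.96) or KO replicate 2 (1.61 and −0.97).

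Since METTL14 acts on RNA at the consensus core GGACT, its letters were counted in 1 transcript a gene from GENCODE M21, the one with the longest coding sequence. GGACT was present in 58 of the 65 transcripts (89.2%), against 91.6% of 13532 genes, and within 100 bases of the stop codon in 12 (18.5%), against 24.0%. The median was 0.90 per kb among the 65 and 1.06 per kb among all. Spearman's rho between the log2 fold change and GGACT per kb was 0.02 across the 65 genes and 0.04 across all genes, which are not independent replicates and share the same 4 libraries. For transcript length rho was −0.18 and 0.01, and for coding length −0.25 and 0.02. Methylation itself was not measured in these files. The match nearest the stop codon is shown for 5 of the genes named above, with GGACT in capitals, to let a reader see the letters around it.
Btg2, coding, 221 bases before the stop codon's end: gccagattGGACTcagccagc
Tob1, 716 bases after it: gttaagagGGACTgaaatagt
Tnrc6c, 808 bases after it: tgtgtgagGGACTtaactgtg
Cnot10, coding, 310 bases before it: ctctgcccGGACTgtgatgct
Exosc6, 31 bases after it: ggattcgaGGACTgctatcgc
The Tob1 match is the single one in its transcript, while the Tnrc6c transcript holds 16, Btg2 5, Exosc6 4 and Cnot10 3. Exosc6 is also the 1 gene of the 65 whose transcript is a single exon, as in 2.44% of all genes. These 5 genes, with lower or higher values in KO, all carried the core, as did 91.6% of all genes. Cnot3 (log2 fold change −0.51) and Lsm4 (0.43) had no match. A match describes letters only.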

How the data were processed

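The files hold whole-number counts per gene, deposited without normalisation by the authors, judged from the values. Per the submitters' processing notes, STAR 2.4.2a, RSEM 1.2.29 and FastQC 0.11.2 were used with build mm10. The sources used here do not give the annotation release or strandedness. The members and lists were chosen with earlier results of these data known. Groups came from the genotype label, and replicate numbers pair no libraries. All 65 symbols were matched to GENCODE M21 (GRCm38). Genes were kept with filterByExpr, scaled by TMM and tested with edgeR 4.0.16 in R 4.3.3 (quasi-likelihood test, legacy and robust options on, 2 residual degrees of freedom). Sex in the fit leaves fewer than 2 residual degrees of freedom. The script was tested on simulated data. Scaling, filters, edgeR options, a sex covariate, each library left out, limma-voom 3.58.1 and DESeq2 1.42.0 were the 15 alternatives. Values in every library were given by rule for members called with or without sex in the fit, for the member of each role with the largest absolute log2 fold change and the one with the highest CPM, for called genes of the second list, and for Mettl14; further members were named after their values were seen. Promoters are from RefSeq (GRCm38.p6; 55 of 65 matched). Shared stretches were exact 50-base matches on either strand between exons of different genes.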

Additional observations from a re-analysis of the deposited data

How the results depend on the processing

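The count of decay genes called higher was 1, and was 3 with library totals, without a filter, with sex in the fit and with DESeq2, 2 with upper quartile scaling, and 0 to 5 with 1 library left out. The count called lower was 1, and was 2 with library totals, upper quartile scaling, the legacy option off, a filter of 1 CPM in 2 libraries and limma-voom, 3 with sex in the fit, 4 without a filter, 5 with DESeq2, and 0 to 3 with 1 library left out. Among the other decay genes the count called higher was 1, and 0 to 2 with 1 library left out. The count called lower was 1, and 0 with library totals, 2 with sex as a covariate and 0 to 1 with 1 library left out. The median log2 fold change of the 65 was −0.019, −0.047 to −0.0029 with 1 library left out, and 0.15 with library totals and 0.054 with upper quartile scaling, while library totals moved the median of all genes from −0.013 to 0.15. Of 315 single-gene values 3 turned sign: Ddx6 with library totals (0.044) and without WT replicate 2 (0.043, within −0.26 to 0.043 over the libraries left out), and Exosc10 with library totals (0.0054). Over all genes, edgeR called 255 higher and 282 lower; the counts were 604 and 186 with library totals, 862 and 770 without a filter, and 952 and 975 with DESeq2. Btg2 (log2 fold change −1.37 to −0.99, adjusted p 3.03e-07 to 0.378) and Exosc6 (1.56 to 2.09, adjusted p 1.76e-05 to 0.378) were called in 13 of 15 alternatives, the exceptions being those without KO replicate 1 or KO replicate 2, which leave 1 KO library assumed to vary like the WT pair. Tob1 was called in 10 of 15. No paired analysis was possible because the labels give no shared replicate numbers, which here only follow accession order; the fit with sex matches 1 WT and 1 KO library of each sex. The causes of these differences were not tested.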
